A study of Homo sapiens with 6 samples.

Results

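MHC class I antigen presentation was followed through 9 genes of the 28265 in the count tables: the heavy chain genes HLA-B, HLA-C and HLA-E, the light chain gene B2M, the peptide transporter genes TAP1 and TAP2, the tapasin gene TAPBP, and the immunoproteasome subunit genes PSMB8 and PSMB9. They were taken by gene symbol, and all 9 were present and passed the low-count filter that left 14315 genes. RNA came from LN229, an established human glioblastoma line, in 3 libraries labelled TRIM25 knockdown (titles with T25, a short hairpin against the E3 ubiquitin ligase gene TRIM25 per the series design) and 3 libraries labelled WT (titles with NC, an abbreviation that the labels leave unexplained). No label states the number of hairpins or clones, whether the WT cells carried a control hairpin, or whether replicates were separate cultures, so the p-values cover the spread between these libraries, which may be technical. Both groups were grown in the same serum-supplemented medium, and the labels name no cytokine treatment.

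MHC class I molecules show peptides from proteins made inside the cell to cytotoxic T cells. Peptides are cut by the proteasome, whose immunoproteasome form carries PSMB8, PSMB9 and PSMB10 in place of the constitutive subunits PSMB5, PSMB6 and PSMB7. The TAP1 and TAP2 proteins carry the peptides into the endoplasmic reticulum, where tapasin places them on a heavy chain paired with beta-2 microglobulin. Interferons raise most of these genes together, through interferon-stimulated response elements and the class I transactivator NLRC5. Several of the promoters also carry NF-kB sites.

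The 6 libraries held between 11349865 and 16404725 counts. TRIM25 itself was higher in the libraries labelled knockdown, with 964, 905 and 1443 counts there against 561, 493 and 563 counts in WT. Its log2 fold change was 1.22 ± 0.07 (SE), with an edgeR adjusted p of 3.23e-09 after Benjamini-Hochberg correction over all genes in the quasi-likelihood test. The targeted mRNA thus goes against its label, so the groups are called labelled knockdown and WT, and no direction here can be read as an effect of losing TRIM25 mRNA. Of 8 markers of mesenchymal glioma lines 6 reached a mean of at least 1 CPM (the count scaled to library size), and the list summed to 8085 to 8394 CPM in labelled knockdown and 8312 to 8796 CPM in WT. Its largest member, vimentin (VIM), did not pass, and nestin (NES) was higher in labelled knockdown (log2 fold change 0.27, edgeR adjusted p = 0.000727). Of 10 leukocyte markers the defining genes PTPRC, CD3E and MS4A1 were at 0.549 CPM or below in every library and AIF1 was at 0. The summed leukocyte list was nevertheless 60.8 to 76.5 CPM in labelled knockdown and 47.1 to 49.2 CPM in WT, most of it CD68, a lysosomal glycoprotein gene (56.7 to 70.9 CPM and 43.8 to 46.1 CPM). CD68 and the integrin gene ITGAM (means of 2.99 CPM in labelled knockdown and 1.22 CPM in WT) were the 2 tested genes of that list, and both were higher (edgeR adjusted p = 0.000299 and 0.00156); their part in the results was not tested. Of 10 markers of mature astrocytes, oligodendrocytes and neurons 5 reached 1 CPM, with a sum of 587 to 623 CPM in labelled knockdown and 675 to 707 CPM in WT, and the astrocyte genes GFAP and ALDH1L1 were near or at 0. Labelled knockdown replicate 1 stood apart from the other libraries of its group on the second principal component. The sum over 5 endothelial markers was 2.64 to 3.05 CPM and 2.79 to 3.34 CPM.

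Promoter stretches that carry the interferon and NF-kB motifs are shown first, because these elements are the textbook basis for treating the 9 genes as a group. RefSeq promoter windows (GRCh38.p14, 250 bases before to 50 after a start) matched 8 of the 9 genes, in 10 windows. Each stretch runs 5′ to 3′ on the strand of its gene, and capitals mark matches on either strand to the core of the interferon-stimulated response element (GAAANNGAAA) or to the NF-kB consensus of 10 letters.
B2M (chr15:44711353-44711421, plus strand): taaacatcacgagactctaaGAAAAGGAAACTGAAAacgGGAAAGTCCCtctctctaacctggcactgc
TAPBP (chr6:33314063-33314154, minus strand): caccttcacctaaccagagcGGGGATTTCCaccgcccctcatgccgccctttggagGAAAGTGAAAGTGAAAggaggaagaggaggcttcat
TAP2 (chr6:32838768-32838817, minus strand): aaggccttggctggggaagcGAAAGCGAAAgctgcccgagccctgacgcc
PSMB8 (chr6:32844022-32844071, minus strand): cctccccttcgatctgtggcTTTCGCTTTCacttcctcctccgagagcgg
HLA-B (chr6:31357326-31357376, minus strand): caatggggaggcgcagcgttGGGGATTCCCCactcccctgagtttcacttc
HLA-C (chr6:31272235-31272284, minus strand): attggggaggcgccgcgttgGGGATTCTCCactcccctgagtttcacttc

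The response element core was found for B2M, TAP1, TAP2, TAPBP and PSMB8, that is 5 of 8 matched genes and 5 of their 10 windows, against 3.57% of all 35116 RefSeq promoter windows. The NF-kB consensus was found for HLA-B, HLA-C, B2M, TAP1 and TAPBP, again 5 of 8 genes and 5 of 10 windows, against 5.91% of all windows. In B2M and TAPBP the capitals hold 2 overlapping response element matches and a separate NF-kB match, and in HLA-B the NF-kB consensus matches on both strands of 1 short run. No base was shared between the motifs. Only exact matches to these letters were counted. A gene without a match, such as HLA-B or HLA-C for the response element, may therefore hold a variant of it. The window of PSMB9 held neither sequence, but it starts at chr6:32853942. The matches of its neighbour TAP1 lie before that start, within chr6:32853655-32853858, and were not counted for PSMB9. HLA genes are polymorphic, and these are reference bases, not those of LN229.

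None of the 9 genes passed the test between labelled knockdown and WT. The edgeR quasi-likelihood test called 0 of 9 at an adjusted p under 0.05, against 23.3% of all 14315 genes, 12.2% higher and 11.0% lower. At an unadjusted p under 0.05 there were 6 of 9, with HLA-B, TAP1, TAP2 and TAPBP on the higher side and HLA-E and PSMB8 on the lower side. Over all genes that unadjusted threshold took 18.2% on the higher side and 17.8% on the lower side. DESeq2 called 0 of the 9, against 16.5% of all genes, and limma-voom called 1, HLA-E, against 23.2%. The differences were small on either side: every 95% interval lay between -0.31 and 0.30 on the log2 scale, that is between 0.805-fold and 1.23-fold. The median log2 fold change of the 9 genes was 0.08, and that of all tested genes was 0.00. Labelled knockdown and WT had separate CPM ranges for 5 of the 9, beside 37.3% of all genes tested.

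**Figure D1:**
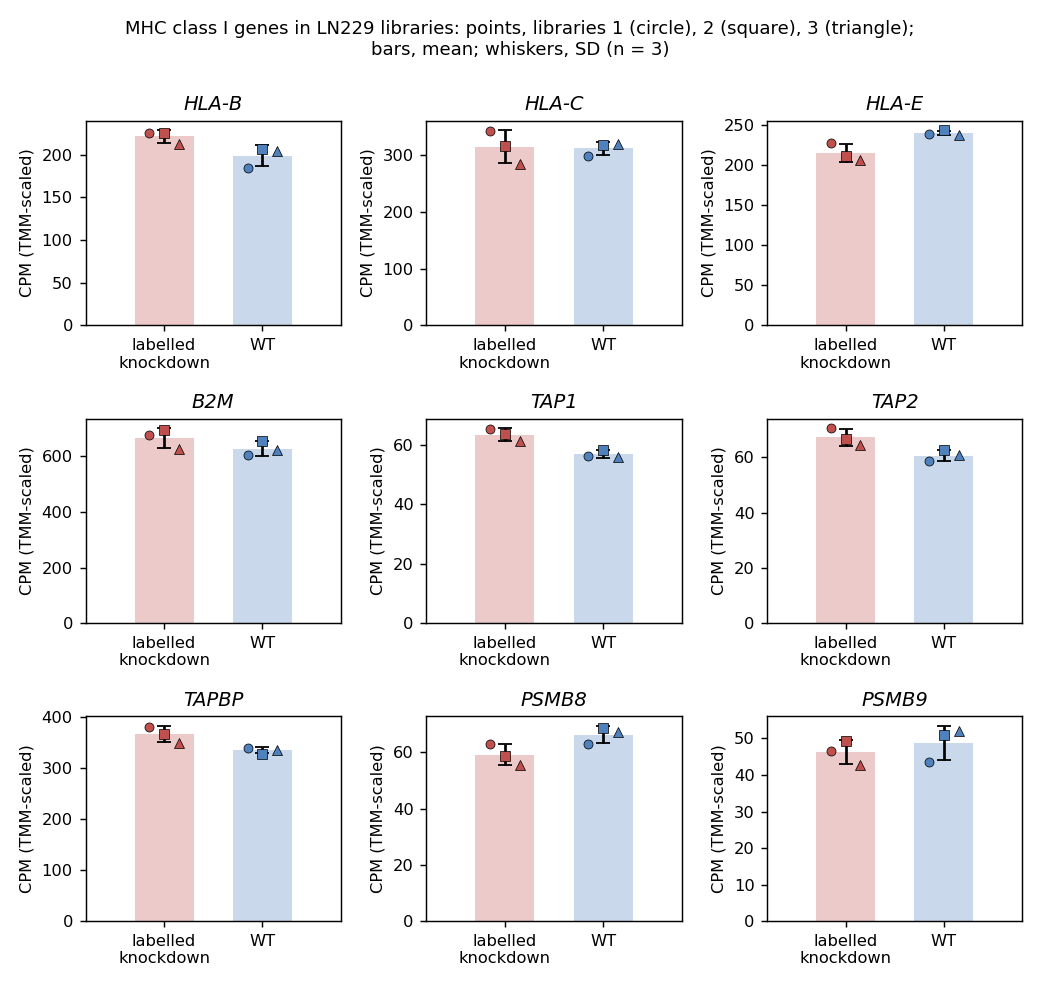
CPM with TMM-scaled library sizes of each gene in the 3 labelled knockdown libraries (left, red) and the 3 WT libraries (right, blue). Bars are means and whiskers SDs (n = 3 each). The groups lie close together in every panel: HLA-E averages 215 CPM in labelled knockdown and 240 CPM in WT, and HLA-C 314 and 311 CPM.

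Among the heavy chains, which bind the peptide, HLA-B and HLA-E had log2 fold changes of opposite sign, 0.16 and -0.16, and that of HLA-C was near 0. HLA-B, a classical class I chain, stood at 226, 225 and 213 CPM in labelled knockdown and at 184, 206 and 205 CPM in WT. All 3 labelled knockdown libraries were above all WT libraries. The log2 fold change was 0.16 ± 0.06 (SE, edgeR adjusted p = 0.0710). HLA-C, the classical chain that is also a main ligand of killer cell inhibitory receptors, stood at 342, 316 and 284 CPM in labelled knockdown and at 297, 316 and 319 CPM in WT. The labelled knockdown libraries enclosed the WT range, and the log2 fold change was 0.01 (95% interval -0.12 to 0.15). HLA-E, a nonclassical chain that presents leader peptides of other class I chains to the NKG2A receptor, stood at 227, 211 and 206 CPM in labelled knockdown and at 239, 243 and 238 CPM in WT. The 3 labelled knockdown libraries were all below WT, which varied by only 2.89 CPM (SD). With a log2 fold change of -0.16 ± 0.06 (SE) HLA-E lay just outside the threshold (edgeR adjusted p = 0.0503). It passed with library sizes alone (adjusted p = 0.0387), with limma-voom (0.0474) and without labelled knockdown replicate 1 (0.00622, log2 fold change -0.19). Library sizes alone called 23.4% of all genes, and the fit without that library called 33.8%.

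Set within a library, so that scaling drops out, HLA-B had 0.994, 1.06 and 1.03 counts per HLA-E count in labelled knockdown and 0.772, 0.849 and 0.861 in WT. This pair was chosen after its values were seen and was not tested. HLA-B and HLA-C are close in sequence, as is the pseudogene HLA-H (log2 fold change 0.05 ± 0.09, SE), and how multiply aligned reads were counted is not given in the sources used here. The split of reads among these genes is therefore uncertain.

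B2M, the light chain that every class I heavy chain needs to leave the endoplasmic reticulum, was the most abundant of the 9. It stood at 676, 691 and 624 CPM in labelled knockdown and at 602, 654 and 619.7 CPM in WT. The ranges overlapped, and the log2 fold change was 0.08 (95% interval -0.03 to 0.20; edgeR adjusted p = 0.277). Scaled by transcript length, B2M exceeded the sum of the 3 heavy chains 1.57-, 1.70- and 1.65-fold in labelled knockdown and 1.58-, 1.60- and 1.52-fold in WT. The ranges of this ratio overlapped (difference of the log2 ratio 0.06; exact permutation test, two-sided, p = 0.3, adjusted p = 0.933 over 4 ratios, where 3 against 3 libraries cannot give a p below 0.1). B2M lies on another chromosome than the heavy chain genes, so its level against theirs also depends on how multiply aligned reads were counted.

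The peptide transport and loading genes all had positive log2 fold changes, of 0.13 to 0.16, and none passed. TAP1, 1 chain of the peptide transporter, stood at 65.4, 63.8 and 61.2 CPM in labelled knockdown and at 56.2, 58.4 and 55.9 CPM in WT. TAP2, its partner chain, stood at 70.6, 66.8 and 64.5 CPM in labelled knockdown and at 58.6, 62.5 and 60.9 CPM in WT. In both genes the groups were apart, with log2 fold changes of 0.16 ± 0.07 for TAP1 and 0.15 ± 0.07 for TAP2 (SE; edgeR adjusted p = 0.0894 and 0.115). The chains kept a similar balance, at 0.943 ± 0.0146 TAP1 counts per TAP2 count in labelled knockdown and 0.937 ± 0.0198 in WT (SD, n = 3 each). TAPBP, which encodes the chaperone tapasin that bridges transporter and heavy chain, stood at 380.5, 367 and 349 CPM in labelled knockdown and at 339, 328 and 335 CPM in WT. All labelled knockdown libraries were again above WT, by 0.13 ± 0.05 on the log2 scale (SE, edgeR adjusted p = 0.0897).

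Both immunoproteasome subunits had negative log2 fold changes, and neither passed. PSMB8, the chymotrypsin-like subunit, stood at 63.1, 58.8 and 55.6 CPM in labelled knockdown and at 62.8, 68.5 and 67.3 CPM in WT. Labelled knockdown replicate 1 reached into the WT range, and the log2 fold change was -0.16 ± 0.07 (SE, edgeR adjusted p = 0.0987); without that library it was -0.21 and passed (adjusted p = 0.0190). PSMB9, the subunit that replaces PSMB6, stood at 46.6, 49.2 and 42.7 CPM in labelled knockdown and at 43.5, 50.8 and 51.9 CPM in WT. Its ranges overlapped widely (log2 fold change -0.08, 95% interval -0.25 to 0.09). TAP1 and PSMB9 lie head to head on the chromosome, yet TAP1 counts per PSMB9 count were 1.40, 1.30 and 1.43 in labelled knockdown and 1.29, 1.15 and 1.08 in WT, a pair also picked after its values were seen.

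The ratios of immunoproteasome subunits to the constitutive subunits they replace had overlapping ranges in labelled knockdown and WT. Per transcript length there were 0.619, 0.576 and 0.569 PSMB8 per PSMB5 in labelled knockdown and 0.618, 0.603 and 0.582 in WT. PSMB9 per PSMB6 was 0.773, 0.806 and 0.771 in labelled knockdown and 0.703, 0.766 and 0.820 in WT. PSMB10 per PSMB7 was 0.104, 0.0802 and 0.0890 in labelled knockdown and 0.0850, 0.0886 and 0.0996 in WT. The exact permutation p values (two-sided) were 0.6, 0.7 and 1, and adjusted over the 4 ratios 0.933, 0.933 and 1; the design cannot reach a p below 0.1, so these values do not show that the ratios were alike. PSMB8 and PSMB9 share 139 bp of exon on opposite strands in GENCODE v29, and the antisense gene PSMB8-AS1 shares 618 bp with PSMB8, 456 bp with TAP1 and, on the same strand, 174 bp with PSMB9. It was low, at 5.21 ± 0.289 CPM in labelled knockdown and 5.85 ± 0.296 CPM in WT (SD, n = 3 each), and its mean of 79.2 counts per library stands beside 671 for PSMB9 and 889 for PSMB8.

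**Figure D2:**
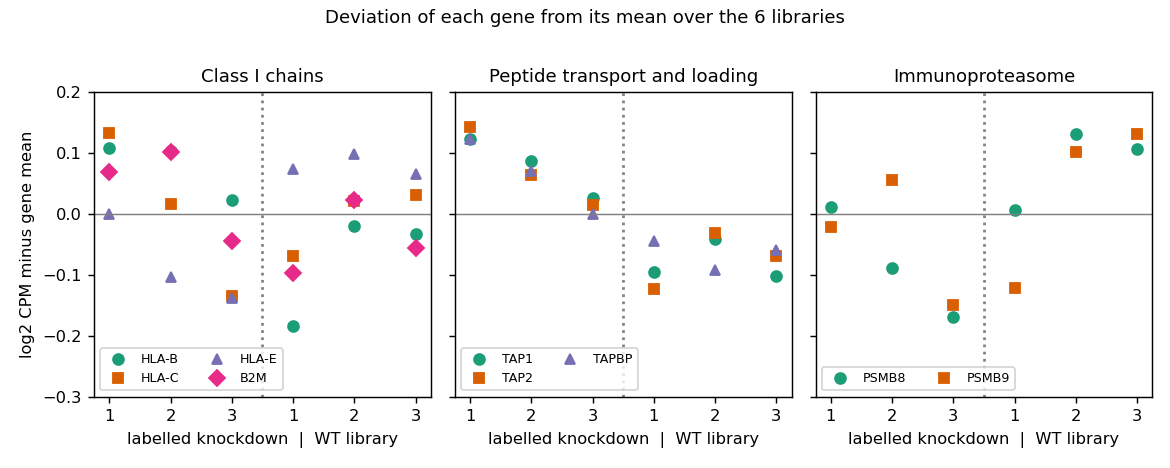
Deviation of each gene's log2 CPM from its own mean over the 6 libraries (vertical axis) in each library (horizontal axis, labelled knockdown left of the dotted line, WT right). TAP1, TAP2 and TAPBP lie at or above 0 in the labelled knockdown libraries and below 0 in the WT libraries, whereas PSMB9 and HLA-C scatter across both groups.

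Part of the scatter within a group was shared by most of the 9 genes. Relative to the group mean, 9 of 9 genes were above in labelled knockdown replicate 1 and 0 of 9 in replicate 3. In WT 1 of 9 was above in replicate 1 and 8 of 9 in replicate 2. The same count was not made over all genes, so this sharing cannot be called particular to the 9. Libraries also differed in a trend with transcript length over all genes. Between a gene's deviation and its length, labelled knockdown replicates 1, 2 and 3 had Spearman's rho of -0.35, 0.05 and 0.36, and WT replicates 1, 2 and 3 had 0.40, -0.13 and -0.34, a description across genes, which are not independent. WT replicate 3, with the strongest negative rho in its group, had 6 of 9 genes above the group mean, fewer than WT replicate 2, so the order of the WT libraries was not the same for both measures. The same trend separates the groups: the median log2 fold change was -0.10 in the shortest of 5 equal length classes of genes (up to 1555 bp), which holds 5 of the 9, and 0.12 in the longest class (over 4731 bp), which holds TAP2.

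The 9 genes therefore depend on the length used for them. At their own transcript length the trend amounted to -0.10 for B2M, -0.12 for PSMB9, -0.08 for HLA-B and 0.06 for TAP2 on the log2 scale. With that trend taken out in each library, 4 genes passed, all higher: HLA-B (log2 fold change 0.24, edgeR adjusted p = 0.000971), TAPBP (0.20, 0.00203), B2M (0.19, 0.00327) and TAP1 (0.18, 0.0264). The same adjustment called 14.2% of all genes higher and 11.1% lower. HLA-C, HLA-E, TAP2, PSMB8 and PSMB9 did not pass, and the log2 fold change of PSMB9 was 0.04 with the adjustment and -0.08 without it.

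The lengths behind the deposited FPKM gave another picture. The length implied by the authors' FPKM was 6.86 times the annotated transcript for HLA-E, 8.43 times for TAP1 and 10.4 times for PSMB9, but 1.78 times for B2M, which lies on chromosome 15. Over 193 genes of the MHC window of chromosome 6 (28 to 34 Mb on GRCh38) the median ratio was 7, against 1.06 for 19217 other genes, and it exceeded 4 in 82.4% and 2.11% of them. The build named in the submitters' processing notes, hg19, is known to carry alternative copies of this region; whether their lengths were added up, and whether reads aligned to several copies were lost, was not tested. The authors' FPKM and TPM of the 8 genes on chromosome 6 are thus low by about this ratio against genes elsewhere, and no level here rests on them. A fold change between libraries does not contain the length. With these implied lengths in the adjustment, a setting added after the data were seen, B2M was higher (0.17, edgeR adjusted p = 0.00630), HLA-E was lower (-0.30, 0.00159) and PSMB8 was lower (-0.28, 0.0106), and HLA-B (0.06), TAP1 (0.01) and TAPBP (-0.01) did not pass. That setting called 14.9% of all genes higher and 11.5% lower. It placed HLA-E at 17836 bp and PSMB8 at 12200 bp on the length trend, against transcript lengths of 2601 bp and 1237.5 bp. The trend there was 0.14 and 0.12, against -0.04 and -0.09 at transcript length. Calls of the chromosome 6 genes in this setting, made or lost, therefore rest on lengths far above their annotated transcripts.

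**Figure D3:**
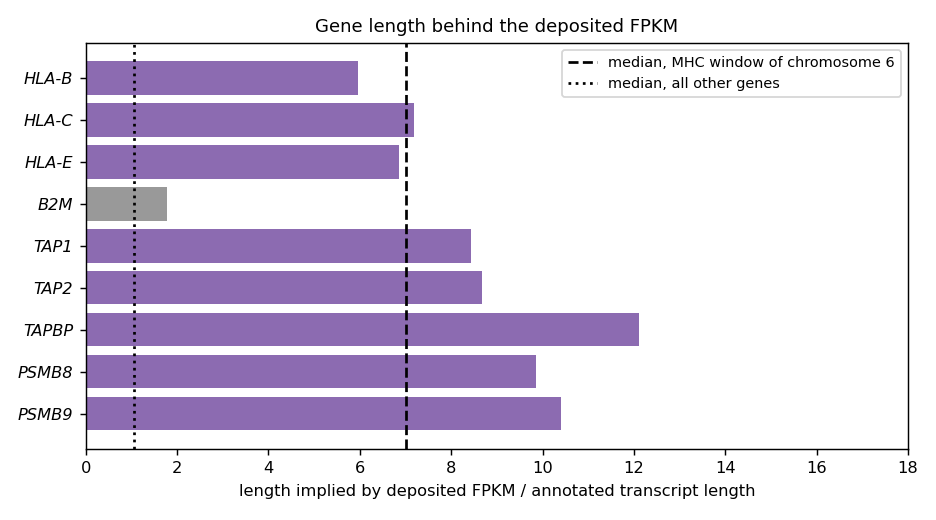
Gene length implied by the deposited FPKM divided by the annotated transcript length for each gene (horizontal axis, a ratio). B2M, outside the MHC, lies at 1.78, and the 8 genes on chromosome 6 lie near or above the median of 7 for their region (dashed), far from the median of 1.06 for other genes (dotted).

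**Figure D4:**
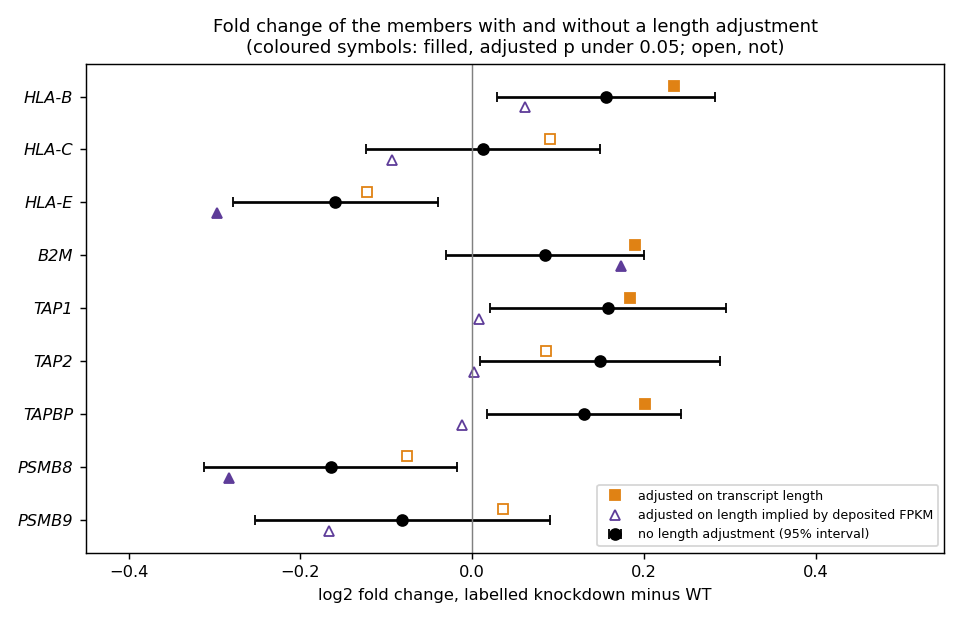
Log2 fold change of each gene, labelled knockdown minus WT. Black points with 95% intervals have no length adjustment, orange squares are adjusted on transcript length and purple triangles on the length implied by the deposited FPKM; filled coloured symbols have an edgeR adjusted p under 0.05. B2M is the only gene filled under both adjustments, at 0.19 and 0.17.

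Scaled to transcript length, B2M led at 704 ± 37.1 CPM per kb in labelled knockdown and 663 ± 28.1 CPM per kb in WT (SD, n = 3 each). HLA-C followed at 204 and 202 CPM per kb, HLA-B at 143 and 128, and HLA-E at 82.6 and 92.2. PSMB9 stood at 59.1 and 62.3 CPM per kb, PSMB8 at 47.8 and 53.5, TAP1 at 21.4 and 19.2, and TAP2 at 11.9 and 10.7. Within each group every step in this order was larger than the SDs of the neighbours, which were at most 18.8 CPM per kb below B2M. TAPBP has no RefSeq-linked transcript in the annotation used and is left out of this order. Whether reads of the MHC region were lost to alternative copies was not tested. The place of B2M, which lies outside that region, against the other genes is therefore uncertain.

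The genes whose profile over the 6 libraries lay nearest to the mean profile of the 9 were CYREN, RPL3, DMAC1, CSTF2T and MRPL10, at a root mean square distance of 0.0096 to 0.0187 on the log2 scale among 11834 candidates. None of the 5 is a class I gene, and their log2 fold changes of 0.00 to 0.04 follow from the choice, since the mean profile averages genes of opposite sign.

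Among other genes of peptide loading and trimming, the trimming enzyme gene ERAP1 and the lectin chaperone gene CANX were higher. Of 9 further loading and trimming genes tested, 2 were higher and 7 did not pass, with a median of 0.19, where 23.3% of all genes were called. ERAP1, which trims peptides in the endoplasmic reticulum, stood at 154, 158 and 166 CPM in labelled knockdown and at 128, 121 and 114 CPM in WT, a log2 fold change of 0.40 ± 0.06 (SE; edgeR adjusted p = 0.000249). CANX, which holds newly made heavy chains, averaged 1273 ± 94.7 CPM in labelled knockdown and 1082 ± 41.0 CPM in WT (SD, n = 3 each), which is 0.24 ± 0.06 on the log2 scale (SE; edgeR adjusted p = 0.00597). Both kept their call in all 14 alternative settings. ERAP2 (0.19), PDIA3 (0.01) and CALR (-0.08), which encodes a chaperone of assembled heavy chains, did not pass.

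Calls among the upstream regulators went in both directions. Of 23 tested, 4 were higher, 2 were lower and 17 did not pass, a share near the 23.3% called among all genes, with a median of 0.05. SOCS3, an inhibitor of JAK kinases, had the largest difference, at 24.9 ± 1.47 CPM in labelled knockdown and 61.9 ± 2.38 CPM in WT (SD, n = 3 each). This was a fold change of -1.32 ± 0.08 on the log2 scale (SE; edgeR adjusted p = 3.23e-09). NLRC5, the class I transactivator, was low and stood at 12.0, 10.6 and 10.6 CPM in labelled knockdown and at 8.81, 7.11 and 8.54 CPM in WT. It was higher by 0.43 ± 0.12 on the log2 scale (SE, edgeR adjusted p = 0.0141), a call lost without WT replicate 2 (adjusted p = 0.0883). IRF9, the DNA-binding part of the interferon factor ISGF complex, was lower by 0.30 on the log2 scale (37.1 ± 0.798 CPM in labelled knockdown, 45.5 ± 1.79 CPM in WT; SD, n = 3 each) in all alternatives. The kinase gene JAK1 was higher by 0.26, a call lost without WT replicate 2 (adjusted p = 0.0579) or 3 (0.0542). The interferon-responsive factor gene IRF1 had a log2 fold change of -0.20 and did not pass (edgeR adjusted p = 0.0594).

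**Figure D5:**
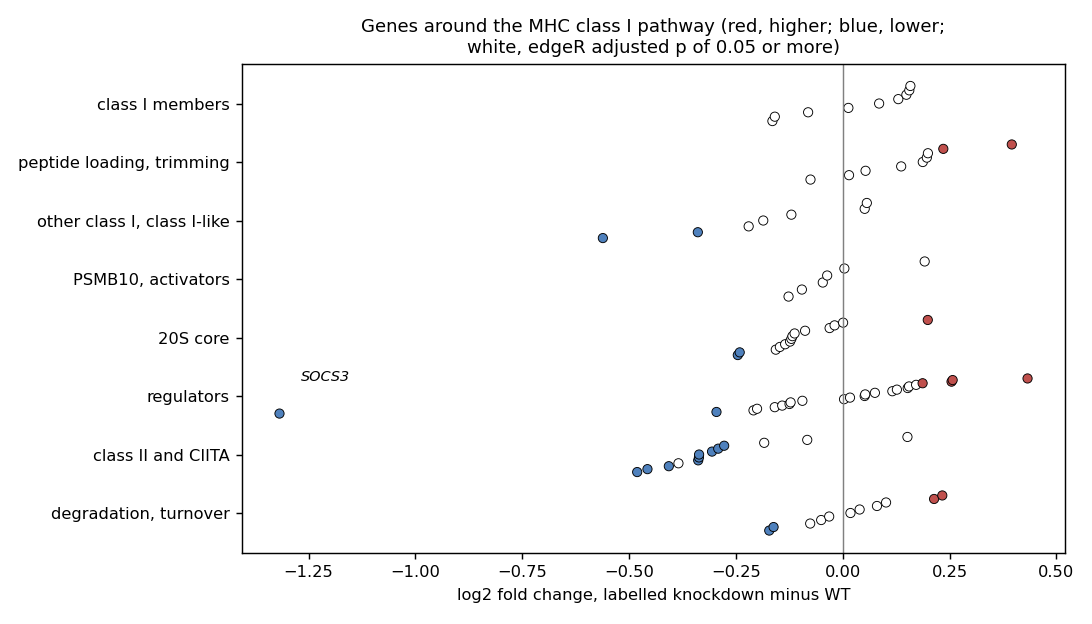
Log2 fold change (labelled knockdown minus WT) of the 9 genes and of the tested genes of 7 related lists, 1 point per gene and 1 row per list. Red points are higher and blue points lower at an edgeR adjusted p under 0.05; the 9 members hold no coloured point, and the class II row holds 9 blue ones.

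MHC class II genes, which present peptides from outside the cell, were lower in the libraries where class I genes did not pass. They were expressed in both groups: CD74, the invariant chain gene, averaged 2287 CPM in labelled knockdown and 2422 CPM in WT. Of 13 class II pathway genes tested, the transactivator CIITA among them, 9 were lower, 0 were higher and 4 did not pass, by edgeR, DESeq2 and limma-voom alike, against 11.0% of all genes lower in edgeR. At an unadjusted p under 0.05 edgeR had 11 on the lower side and 1 on the higher side, against 17.8% and 18.2% of all genes. The median log2 fold change was -0.34. The peptide exchange genes HLA-DMB and HLA-DMA were lower by 0.48 and 0.46, HLA-DPB1 by 0.41 and HLA-DRB5 by 0.34 on the log2 scale (edgeR adjusted p = 0.000163, 6.59e-05, 0.000136 and 0.00220). HLA-DRA stood at 630.5, 637 and 590 CPM in labelled knockdown and at 757, 796 and 792 CPM in WT. Within a library there were 2.80, 2.83 and 2.78 HLA-DRA counts per HLA-B count in labelled knockdown and 4.11, 3.85 and 3.87 in WT, so the groups were apart in this pair, which was chosen after its values were seen and not tested. Of the 9 calls 8 held in all 14 alternative settings; HLA-DQB1 lost its call without labelled knockdown replicate 3 (adjusted p = 0.0510) or WT replicate 3 (0.0574). The HLA-D genes lie in the same region as class I, and their reads carry the same doubt about alternative copies.

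Of 7 other class I and class I-like genes tested 2 were lower, the lipid-binding gene AZGP1 (27.2 ± 3.15 CPM in labelled knockdown and 40.1 ± 1.58 CPM in WT with SD and n = 3 each, -0.56 on the log2 scale, edgeR adjusted p = 0.000162) and the neonatal Fc receptor gene FCGRT (-0.34, 0.0391). Among all genes, edgeR called 11.0% lower and 23.3% in either direction. The FCGRT call was lost in 9 of 14 settings, among them the fits without labelled knockdown replicate 2 (adjusted p = 0.0608) or 3 (0.180) and without WT replicate 1 (0.0777) or 2 (0.180). HLA-F did not pass (-0.12), and HLA-G had between 0 and 3 counts per library and was not tested. Of PSMB10 and 5 proteasome activator and assembly genes 0 passed with edgeR, DESeq2 or limma-voom, against 23.3%, 16.5% and 23.2% of all genes. With edgeR 1 had an unadjusted p under 0.05, on the higher side, against 18.2% of all genes. Of 14 core proteasome genes 1 was higher and 2 were lower, again near the share over all genes. PSMB3 was lower by 0.25, a call lost under either length adjustment (adjusted p = 0.114 and 0.170). PSMA7 was lower by 0.24 and lost its call without labelled knockdown replicate 2 (adjusted p = 0.125) or WT replicate 2 (0.101) or 3 (0.0668) and with the lengths implied by the FPKM (0.0991), and PSMB4 was higher by 0.20 and lost it without labelled knockdown replicate 2 (0.109) or WT replicate 1 (0.0810) or 2 (0.0963). Of 11 genes of endoplasmic reticulum degradation and surface turnover 2 were higher (MARCHF8 and SEL1L) and 2 were lower (HM13 and VCP). Over all genes 12.2% were higher and 11.0% were lower, and each of the 4 differences was at most 0.23 on the log2 scale. Each of these 4 calls was lost without labelled knockdown replicate 2 (adjusted p = 0.0732, 0.139, 0.0883 and 0.147 in that order), and each was also lost without labelled knockdown replicate 3, WT replicate 2 or WT replicate 3 (adjusted p between 0.0606 and 0.177).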

How the data were processed

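Total RNA libraries from LN229 cells were made with a stranded kit, per the labels' protocols. Reads were processed with FastQC, MultiQC, Trim Galore and HISAT2 on build hg19, per the submitters' processing notes; which program counted reads, with which strand setting and annotation, is not stated in the labels used here. The authors deposited 1 table per library with raw counts, FPKM and TPM per gene symbol, per the file headers. The authors' FPKM is the count over a fixed gene length and the total count (implied lengths whole within 0.001 for 100% of the values), and their TPM is the FPKM rescaled; FPKM served only to recover lengths, and TPM was not used further. No column of another sample was present (0).

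Counts were fitted in R 4.3.3 with edgeR 4.0.16 (filterByExpr, TMM factors 0.995 to 1.00, glmQLFit and glmQLFTest, group as the only term), with Benjamini-Hochberg adjustment over all 14315 tested genes, a threshold of 0.05, and labelled knockdown minus WT as the direction. Standard errors are the fold change over the square root of F. DESeq2 1.42.0 and limma 3.58.1 gave alternative fits. Transcript length was the median of a gene's RefSeq-linked transcripts in GENCODE v29 (otherwise of its basic transcripts), and the length adjustment a loess (span 0.3) of each library's log2 deviation on log2 length, used as an offset. GENCODE is on GRCh38, so it gave lengths and overlaps, not positions of reads. Ratios were tested with exact permutation tests in scipy 1.17.1. The fit was tested on simulated data. The genes, lists and settings were chosen with earlier results of these data known. Named genes are the 9 members, TRIM25, up to 4 called genes with the largest fold changes per list, a fixed set of pathway genes (1 of them not reported here) and the 5 genes nearest in profile; HLA-DRA, HLA-DQB1, CD74, HLA-F, HLA-G and HLA-H were named after their values were seen. Same-numbered libraries showed no shared deviation (correlations over genes of -0.19, 0.01 and -0.22), so no pairing was used. Some differently numbered libraries did: labelled knockdown replicate 1 with WT replicate 3 (0.22) and labelled knockdown replicate 3 with WT replicate 1 (0.19). Each of these pairs has length trends of the same sign. Within each group, all pairs of libraries were further apart than sampling noise allows (chi-square at least 1.95 times its degrees of freedom).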

Additional observations from a re-analysis of the deposited data

How the results depend on the processing

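The count of 0 genes called among the 9 was also 0 with DESeq2, without the low-count filter and with the replicate number as a block. It was 1 with library sizes alone and 1 with limma-voom (HLA-E, lower, in both), 4 with the transcript length adjustment, 3 with the replicate block and that adjustment together, and 3 with the lengths implied by the FPKM; in fits without 1 library it lay between 0 and 2, the 2 being HLA-E and PSMB8 without labelled knockdown replicate 1. Members' directions were kept in all 14 settings for B2M, HLA-B, HLA-E, PSMB8, TAP1 and TAP2, and not for HLA-C, PSMB9 and TAPBP, which passed on neither side when turned. Over all genes 3330 calls became 1891 with the replicate block and 1826 to 4941 in fits without 1 library. The highest count was without labelled knockdown replicate 1, and counts were lowest without WT replicate 2, labelled knockdown replicate 2 (1868) or WT replicate 3 (1877). The 26 calls over the related lists became 17 with the block and 17 to 40 without 1 library, lowest without labelled knockdown replicate 2 or WT replicate 2 and highest without labelled knockdown replicate 1. The NLRC5 call was also lost with the block and the length adjustment together (adjusted p = 0.0625). The difference in the B2M ratio was 0.0152 with HLA-B and HLA-C alone as denominator. The cause of these changes was not tested, beyond fewer libraries in the fits without 1. The members had 557 to 10172 counts per library, so the spread between 3 libraries, more than counting error, limits what differences of this size can be told apart.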
